A study of Danio rerio with 12 samples.

Results

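The cytosolic ribosomal protein genes were taken by name: protein-coding genes whose symbol, read in lower case, began with rpl, rps or rplp and a digit, or with rpsa, with the S6 kinase genes left out. This rule found 85 of the 26816 genes in the expression table, or 85 of its 24420 protein-coding genes. Of these, 36 carried small-subunit names and 49 large-subunit names, and 85 of 85 passed the filter on low values. They were followed in wild-type zebrafish larvae raised in tributyltin chloride (TBT), an organotin biocide that activates nuclear receptors, among them the retinoid X receptors.

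The 4 groups were a solvent control (0 nM) and larvae in water with 3, 30 or 100 nM TBT, with 3 libraries in each. Exposure ran from day 2 to day 5 after fertilisation, when larvae were collected, and every group, the control included, received DMSO at 0.2% by volume. Each library came from polyadenylated RNA of a pool of 10 whole larvae, so the values average over all tissues, and fewer cells of a type cannot be told apart from less RNA per cell. Whether pools with the same treatment came from different clutches is not stated in the labels, and p-values then measure the spread between these pools.

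A eukaryotic ribosome is built from ribosomal RNA and a fixed set of proteins, each of which is made by its own gene. The small subunit holds the messenger RNA and the site where codons are read. The large subunit holds the site of peptide bond formation and the exit tunnel. In vertebrates the messenger RNAs of nearly all of these proteins start with a run of pyrimidines, through which their translation is switched together by growth signals, and in humans the loss of 1 copy of some of these genes causes Diamond-Blackfan anaemia.

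In each library the ribosomal protein genes together held between 6.17% and 9.79% of all normalised counts. The share was 8.83%, 6.17% and 8.52% in control replicates 1, 2 and 3. It was 9.59%, 8.42% and 9.79% at 3 nM. It was 9.26%, 7.92% and 9.01% at 30 nM, and 9.61%, 7.30% and 9.03% at 100 nM. Replicate 2 had the lowest share in each of the 4 groups, control replicate 2 had the lowest of the 12 libraries, and every treated group overlapped with the control group.

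The mean share was 7.84% ± 1.46 (SD, n = 3) without TBT. With 3 nM it was 9.27% ± 0.741, with 30 nM 8.73% ± 0.712 and with 100 nM 8.65% ± 1.2. The pooled SD within groups was 1.07 percentage points, so that the excess over control was smaller than 1 such SD at 30 and 100 nM and larger at 3 nM. Because a share is a ratio within 1 library, it does not depend on the size factor by which that library was scaled. Without control replicate 2, the mean share minus that of the remaining controls was −0.0276 percentage points at 100 nM, 0.0501 at 30 nM and 0.589 at 3 nM.

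**Figure D1:**
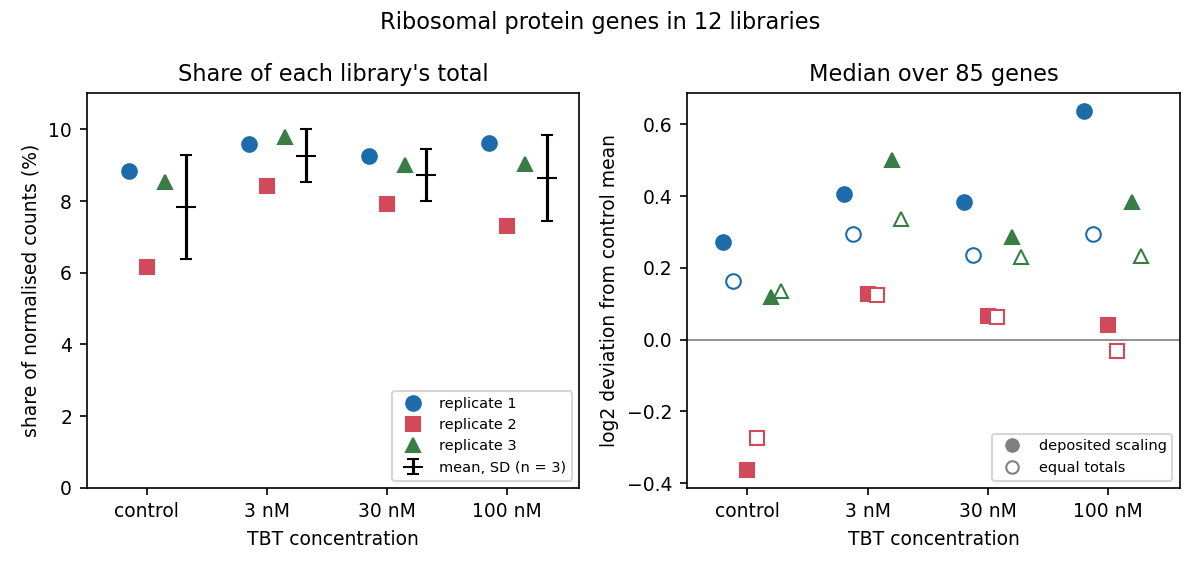
Left, the share of each library's normalised counts (percent) held by the 85 ribosomal protein genes, by TBT concentration, with 1 marker per library and the mean with its SD (n = 3) in black. Right, the median over the 85 genes of the log2 deviation from the control mean, in the deposited scaling (filled) and with all libraries scaled to equal totals (open); replicate 2 (squares) is lowest in each group, and control replicate 2 lies at −0.36 in the deposited scaling.

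At 100 nM against control, the log2 fold change of the members had a median of 0.35, a 1.27-fold difference, and lay above 0 for 85 of 85 genes. The median over all 22404 genes tested was −0.02, and 48.1% of all genes lay above 0. However, 0 of the 85 members passed an adjusted p of 0.05 (limma with 1 mean per group and no term for the replicate number, Benjamini-Hochberg over all genes tested), in a comparison in which 17.5% of all genes did, 9.63% higher and 7.9% lower. At an unadjusted p under 0.05, 7 members were higher, against 16.1% of all genes. Among these were, with their log2 fold changes, rplp2 (0.60), rps27.2 (0.51), rpl36a (0.45), rps25 (0.42), rpl18 (0.41) and rpl5b (0.41). The smallest adjusted p of a member in this fit was 0.112, for rplp2. With a limma term for the replicate number, which no label explains, 52 members were called higher, against 16.9% of all genes. With that term and equal totals it was 12 members, against 9.34% of all genes called higher.

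At 30 nM the median was 0.25, a 1.19-fold difference, with 85 of 85 members and 49.4% of all genes above 0, and 0 members were called where 0.531% of all genes were. One gene, rps8b, had an unadjusted p under 0.05, against 9.68% of all genes in either direction. At 3 nM the median was 0.35, and 85 of 85 members and 51.4% of all genes lay above 0. There 0 members were called, against 0.0402% of all genes, and 1 had an unadjusted p under 0.05, against 10.6%. These 3 comparisons share their control libraries, so a low control library moves all of them. Between 100 and 30 nM, which share no library, the median was 0.09 with 83 members above 0 and 2 below, against 48.3% of all genes above 0. There 0 members were called by limma, where 9.23% of all genes were. At an unadjusted p under 0.05 it was 0 members, against 22.6% of all genes. In the joint limma test of the 4 groups, 0 members were called, against 12.9% of all genes, and 0 had an unadjusted p under 0.05. With a term for the replicate number, limma called 14 members higher at 3 nM, against 1.91% of all genes, and 0 at 30 nM. It called 29 members jointly, against 33.8% of all genes.

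The members moved within a narrow band. At 100 nM the 10th and 90th percentiles of their log2 fold changes were 0.26 and 0.43, whereas those of all genes were −0.65 and 0.58. In this fit, with no term for the replicate number, each single gene was measured less closely than this band is wide. The median standard error of a member was 0.21 on the log2 scale, and the 95% interval of its difference at 100 nM ran, at the median, from −0.10 to 0.80. A p above the threshold therefore does not show that these genes stayed level.

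**Figure D2:**
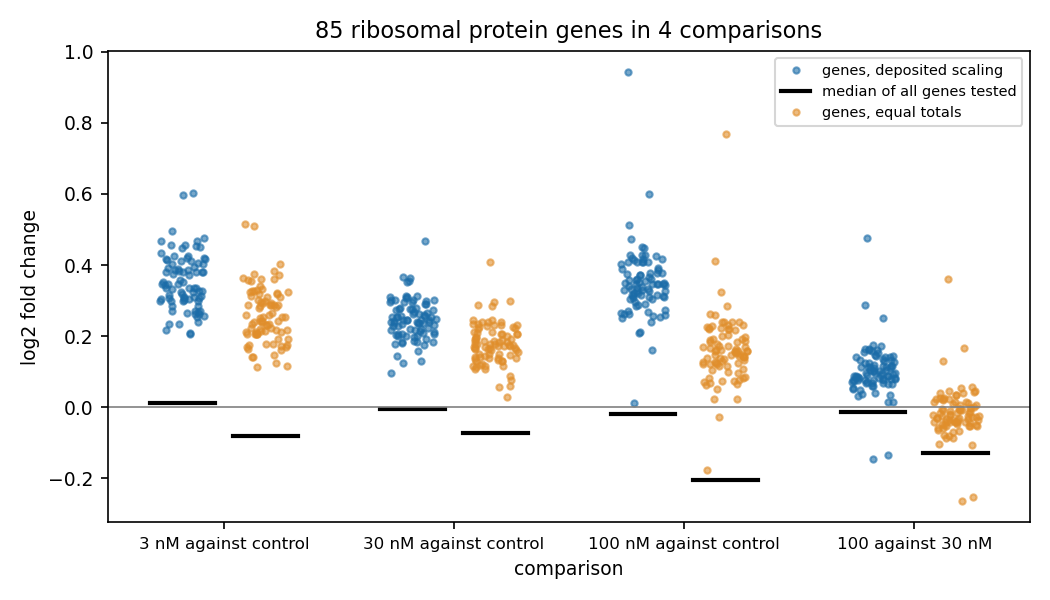
Log2 fold change of each of the 85 ribosomal protein genes (points) in 4 comparisons, in the deposited scaling (blue) and with equal totals (orange), with the median over all 22404 genes tested as a black bar. At 100 nM against control the median of the members is 0.35 in the deposited scaling and 0.16 with equal totals, and between 100 and 30 nM it is 0.09 and −0.02.

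The deposited values had been divided by a size factor per library, and their totals still differed, from 26515823 in control replicate 2 to 35772586 in 100 nM replicate 1. When every library was brought to the same total, the median at 100 nM was 0.16, with 83 genes above 0 and 2 below (rps19bp1 at −0.03 and the gene ENSDARG00000076360, listed as rpl37, at −0.18). The median over all genes shifted at the same time to −0.21, with 31.3% of genes above 0. With equal totals the members' median was 0.18 at 30 nM and 0.25 at 3 nM, with 85 of 85 above 0 in both, against medians over all genes of −0.07 and −0.08 and 38.3% and 38.1% of all genes above 0. Between 100 and 30 nM the direction turned: 25 members lay above 0 and 60 below, against 33.8% of all genes above 0, and the median was −0.02. The joint test and the 4 comparisons called 0 members with equal totals, with 1, 0 and 5 members at an unadjusted p under 0.05 at 100, 30 and 3 nM and 0 between 100 and 30 nM. The shares of all genes at that unadjusted threshold were not counted with equal totals. Equal totals called 17.8%, 0.277%, 0.058% and 8.07% of all genes at 100, 30 and 3 nM and between 100 and 30 nM, and 10.9% in the joint test. Relative to the median of all genes, the members' median at 100 nM was higher in both scalings. A new scale shifts all genes of a library nearly alike, so this agreement of the 2 scalings adds no support.

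The spread among libraries of a group was shared by nearly all members. Replicate 2 was the lowest of its group in all 4 groups for 81 of the 85 genes, which held for 15.2% of all genes, and in 3 groups for the remaining 4, among them rps8b, rps19bp1 and the rpl37 gene ENSDARG00000076360. In the deposited scaling, control replicate 2 held the lowest value of the 12 libraries for 83 members, and 100 nM replicate 1 the highest for 78. Those libraries held the lowest value of 16.7% and the highest of 16.7% of all genes. With equal totals the members' median deviation from the control mean was 0.294 in 100 nM replicate 1, below 0.335 in 3 nM replicate 3.

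The median deviation of the members from their control mean was 0.27, −0.36 and 0.12 in the control libraries and 0.64, 0.04 and 0.38 at 100 nM. It was 0.41, 0.13 and 0.50 at 3 nM, and 0.38, 0.06 and 0.29 at 30 nM. Control replicate 2 lay apart from the other 2 controls, and 100 nM replicate 2 lay below control replicates 1 and 3. Left without control replicate 2, the median log2 fold change at 100 nM was 0.15, at 30 nM 0.06 and at 3 nM 0.15. Without all 4 libraries numbered 2, a choice made after the data were seen, it was 0.31, 0.15 and 0.25. Left without 100 nM replicate 2, it was 0.51 at 100 nM. In that limma fit 4 members (rps27.2, rps8b, rps18 and rps26) passed an adjusted p of 0.05, as did 4621 of all genes tested. Without control replicate 1, rpl36a was among the 2 members that passed at 100 nM, as did 4611 of all genes tested.

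**Figure D3:**
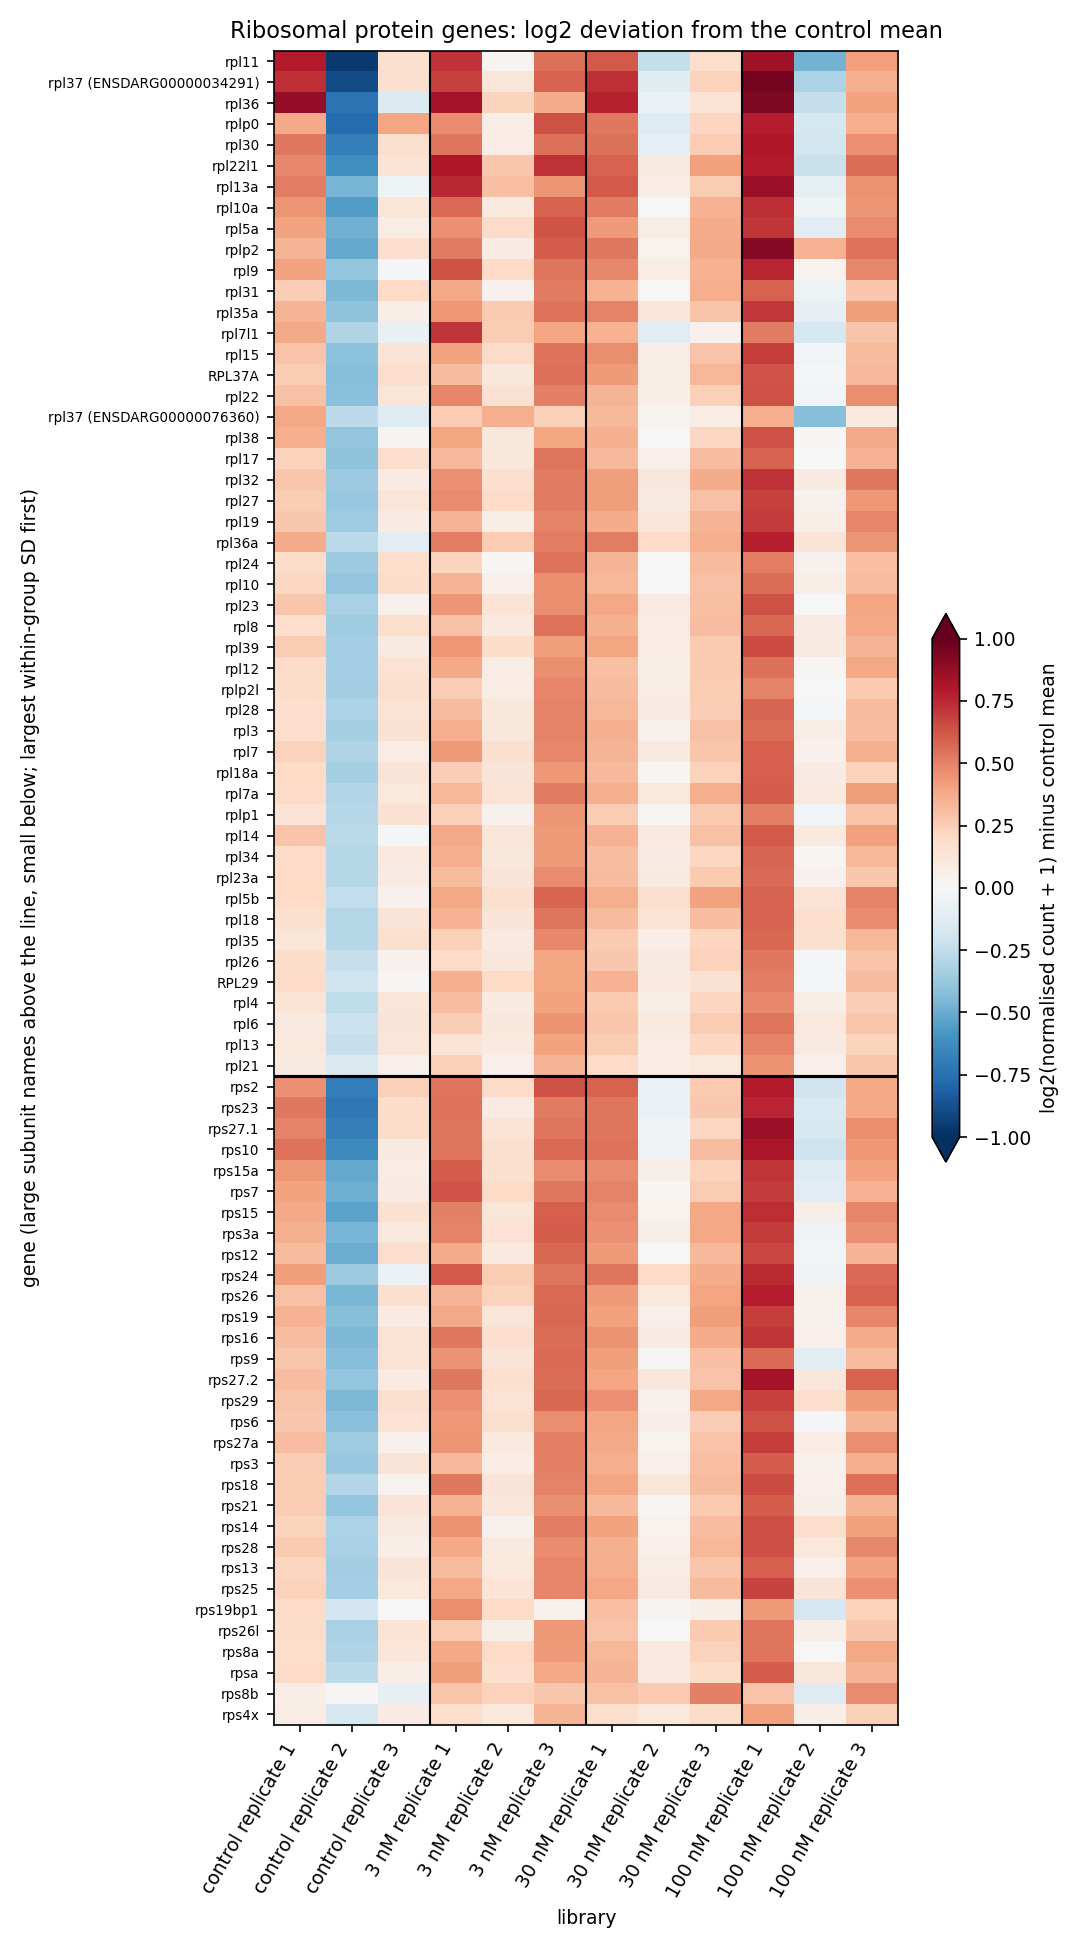
Log2 deviation from the control mean for 80 of the 85 ribosomal protein genes (rows, large-subunit names above the line and small-subunit names below, the largest within-group SD first) in the 12 libraries (columns, by group). Control replicate 2 is the blue column, replicate 2 of each treated group is paler than its neighbours, and 100 nM replicate 1 is the darkest red; colours end at −1 and 1.

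Markers of some tissues moved with these libraries, and the epidermal and neuronal lists are given in values here. Of the other tissue lists, the muscle sum was also lowest, and the enterocyte sum also highest, in replicate 2 of each group. The sums of the liver, lens, exocrine pancreas and erythrocyte lists were neither lowest nor highest there in every group. The summed level of 3 epidermal keratin genes (krt4, krt5 and cyt1) was 1253625, 340484 and 767230 in the control libraries and 1318450, 420861 and 1006058 at 100 nM. It ranged from 681762 to 1070737 at 3 nM and from 654458 to 1245722 at 30 nM, and was lowest in replicate 2 of each group. The summed level of 3 neuronal genes (elavl3, snap25a and sncb) was highest in replicate 2 of each group. It was 7252, 17061 and 10594 in the control, 6940, 10174 and 6831 at 3 nM, 8591, 10227 and 8409 at 30 nM and 6032, 11820 and 7276 at 100 nM. Of these 6 genes, 0 were at 0 in any library. Their part in the ribosomal protein values was not tested.

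Among the small-subunit genes the median log2 fold change was 0.35 at 100 nM, 0.25 at 30 nM and 0.36 at 3 nM, with 36 of 36 above 0 and 0 called in each. The lowest value at 100 nM was 0.16 (rps19bp1).

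rps6 encodes the protein phosphorylated by the S6 kinases downstream of TOR signalling. Its normalised counts were 54233, 33653 and 49708 in the control, 60658, 50291 and 62030 at 3 nM, 59041, 47128 and 53277 at 30 nM and 69779, 44531 and 56831 at 100 nM. Replicate 2 was low in each group and the groups overlapped. The log2 fold change at 100 nM was 0.32 with a standard error of 0.22 (adjusted p = 0.357, limma), and relative to the summed level of all 85 members it was −0.02.

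rps19, whose human ortholog is the gene most often mutated in Diamond-Blackfan anaemia, had 21559, 12613 and 17898 normalised counts in the control and 27354, 17494 and 23832 at 100 nM. The lowest treated library lay within the control range. Its log2 fold change was 0.41 at 100 nM (95% interval −0.09 to 0.91), 0.30 at 30 nM and 0.36 at 3 nM. Over the 22 members whose human orthologs are mutated in this anaemia, the median was 0.36, 0.26 and 0.39 at 100, 30 and 3 nM, with 22 of 22 above 0 and 0 called in each, and with equal totals 0.17, 0.19 and 0.29.

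rpsa, the gene of the laminin receptor protein that also sits on the small subunit, had a mean of 59410 ± 9186 normalised counts (SD, n = 3) without TBT, and of 74170 ± 6726 with 3 nM, 68240 ± 5823 with 30 nM and 75910 ± 13040 with 100 nM. rps3, whose protein lines the entry of the messenger RNA channel, had means of 34260 ± 7426, 41750 ± 6131, 39860 ± 4474 and 43130 ± 8258 in the same order. rps27a, which encodes ubiquitin fused to a ribosomal protein, had means of 31940 ± 7191, 40210 ± 5767, 37090 ± 4536 and 42290 ± 8786. For these 3 genes the differences at 100 nM had adjusted p-values of 0.223, 0.298 and 0.222 (limma), and the treated and control libraries overlapped.

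rps18, a common reference gene in quantitative PCR, had 22383, 15249 and 19233 normalised counts in the control and 29359, 19383 and 27490 at 100 nM, a log2 fold change of 0.42 with a standard error of 0.20 (adjusted p = 0.174, limma). Of the other genes often used as such references, rpl13a differed by 0.40, rpl8 by 0.35 and rpl7 by 0.34 at 100 nM, with adjusted p-values of 0.375, 0.259 and 0.259. With equal totals these 4 genes differed by 0.23, 0.22, 0.16 and 0.15. The range of the 12 libraries was 15249 to 29359 for rps18 and 23360 to 58593 for rpl13a, with a coefficient of variation over all 12 libraries of 18.2% and 25.2%.

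The small-subunit gene rps4x had the smallest spread within groups, an SD of 0.13 on the log2 scale. It had 41896, 35614 and 42152 normalised counts in the control, 44904, 42807 and 50198 at 3 nM, 45012, 42892 and 45123 at 30 nM and 52976, 41547 and 46963 at 100 nM. All libraries at 3 and 30 nM lay above the control range, whereas 100 nM replicate 2 lay within it. Its log2 fold changes were 0.21, 0.16 and 0.24 at 3, 30 and 100 nM, with adjusted p-values of 0.57, 0.775 and 0.285 (limma).

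For the large-subunit genes the median log2 fold change was 0.33 at 100 nM, 0.24 at 30 nM and 0.33 at 3 nM, with 49 of 49 above 0 and 0 called in each. At 100 nM the values ranged from 0.01 (the rpl37 gene ENSDARG00000076360) to 0.60 (rplp2). With equal totals it was 0.14, 0.17 and 0.23, beside 0.16, 0.19 and 0.27 for the small-subunit genes.

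rpl11, rpl5a and rpl5b encode the proteins that travel with the 5S ribosomal RNA and that, in mammals, can bind the p53 regulator MDM2. rpl11 had the largest spread of all members within groups, an SD of 0.62 on the log2 scale. Its normalised counts were 58102, 17262 and 37380 in the control, 55103, 34169 and 49044 at 3 nM, 51214, 28305 and 37868 at 30 nM and 60215, 24184 and 44370 at 100 nM. Replicate 1 was highest and replicate 2 lowest in each group, and control replicate 1 was above all but 1 of the treated libraries.

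For rpl11 the log2 fold change at 100 nM was 0.26 with a standard error of 0.44 (adjusted p = 0.729, limma), and −0.22 without control replicate 2. rpl5b differed by 0.41 (95% interval 0.02 to 0.80, adjusted p = 0.138) and rpl5a by 0.36 (95% interval −0.21 to 0.93, adjusted p = 0.378).

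rpl18, a large-subunit gene, had 27255, 19964 and 26613 normalised counts in the control, 30973, 26631 and 35357 at 3 nM, 30378, 26755 and 30166 at 30 nM and 36689, 27477 and 33908 at 100 nM. Its libraries at 100 nM lay above the control range, and those at 3 and 30 nM overlapped with it through replicate 2. The log2 fold change at 100 nM was 0.41 (95% interval 0.04 to 0.79, adjusted p = 0.123, limma), and 0.23 with equal totals.

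rpl36a had 24251, 15549 and 17390 normalised counts in the control and 32050, 20451 and 25473 at 100 nM, where replicate 2 lay within the control range. Its log2 fold change was 0.45 (95% interval 0.01 to 0.89, adjusted p = 0.153, limma). rps25, a small-subunit gene known for its part in internal ribosome entry, had 22535, 15249 and 20757 in the control and 30715, 21025 and 26386 at 100 nM, again with replicate 2 within the control range, and differed by 0.42 (95% interval 0.01 to 0.83, adjusted p = 0.154).

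rpl36 and the rpl37 gene ENSDARG00000034291 followed rpl11 in spread over the control libraries. rpl36 had 28103, 9195 and 13894 normalised counts in the control and 29261, 12971 and 20256 at 100 nM. rpl37 had 37973, 12285 and 25561 in the control and 44303, 18333 and 29215 at 100 nM. In both genes replicate 1 was highest and replicate 2 lowest in each group, and the log2 fold changes at 100 nM, 0.37 and 0.33, were smaller than their standard errors of 0.40 and 0.42. Among the genes with a small spread was rpl21, with an SD within groups of 0.14, which had 21672, 18455 and 21162 in the control and 27855, 21118 and 24705 at 100 nM.

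The stalk of the large subunit, which recruits the elongation factors, is built from 1 copy of the rplp0 product and dimers of the P1 and P2 proteins. Its 4 genes (rplp0, rplp1, rplp2 and rplp2l) had a median log2 fold change of 0.29 at 100 nM, 0.21 at 30 nM and 0.33 at 3 nM, with 0 called. rplp0 had 153203, 69201 and 154725 normalised counts in the control and 202703, 104333 and 151611 at 100 nM, so that 2 of the 3 treated libraries lay below control replicates 1 and 3, and its log2 fold change was 0.32 with a standard error of 0.36 (adjusted p = 0.583, limma). rplp1 had 34955, 26157 and 35321 in the control and 45037, 31322 and 38808 at 100 nM, with a log2 fold change of 0.25 and an adjusted p of 0.381.

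rplp2, a gene of the P2 protein, differed most among the stalk genes. It had 8505, 4695 and 7573 normalised counts in the control, 9632, 7088 and 10238 at 3 nM, 9688, 6863 and 8724 at 30 nM and 12613, 8555 and 9767 at 100 nM. All libraries at 100 nM lay above the control range in the deposited scaling and with equal totals, the latter true of 1 member and 8.2% of all genes. The log2 fold change at 100 nM was 0.60 (95% interval 0.07 to 1.13), the unadjusted p was 0.029 and the adjusted p was 0.112 (limma).

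Its paralog rplp2l had 18254, 12637 and 18090 in the control, 19164, 16949 and 22555 at 3 nM, 20019, 16941 and 19198 at 30 nM and 22699, 16034 and 19311 at 100 nM. The control and 100 nM libraries overlapped, and the log2 fold change was 0.25 (95% interval −0.15 to 0.65, adjusted p = 0.383).

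All 3 treated libraries lay above the control range for 3 members at 100 nM, rplp2 and rpl18 among them, against 14.5% of all genes. The same was seen for 2 members at 30 nM (rps4x and rps8b), against 6.98%, and for 5 at 3 nM (rps8a, RPL29, rps4x and rps8b among them), against 8.23%. With equal totals the numbers were 1, 6 and 16, against 8.2%, 4.62% and 4.89% of all genes.

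To see which members departed from the others, each library was also scaled to an equal sum of the 85 genes, a scaling chosen after the data were seen. The median SD within groups was then 0.0842 on the log2 scale in place of 0.26, with the lowest at 0.0252 for rps9, and it was 0.348 for rpl11. All genes tested had a median SD of 0.254 in the deposited scaling, to be set beside 0.26 and not beside 0.0842. The log2 fold change was within 0.1 of 0 for 75 of the 85 members at 100 nM, 77 at 30 nM and 69 at 3 nM. As the 85 genes themselves set this scale, the smaller SD and the changes near 0 follow in part by construction. They are no measure of how closely the members moved together. On this scale 0 members were called (limma, with no term for the replicate number), and 0 had an unadjusted p under 0.05, in each of the 3 comparisons with control; the shares of all genes called were 7.95%, 0.179% and 0.0982%.

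In this scaling rplp2, rps27.2 and rps26 were among the highest at 100 nM, at 0.26, 0.17 and 0.14. The lowest were the rpl37 gene ENSDARG00000076360 at −0.33, rps19bp1 at −0.18, and rpl7l1 and rps8b, each at −0.13. At 3 nM rpl22l1 stood at 0.25.

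**Figure D4:**
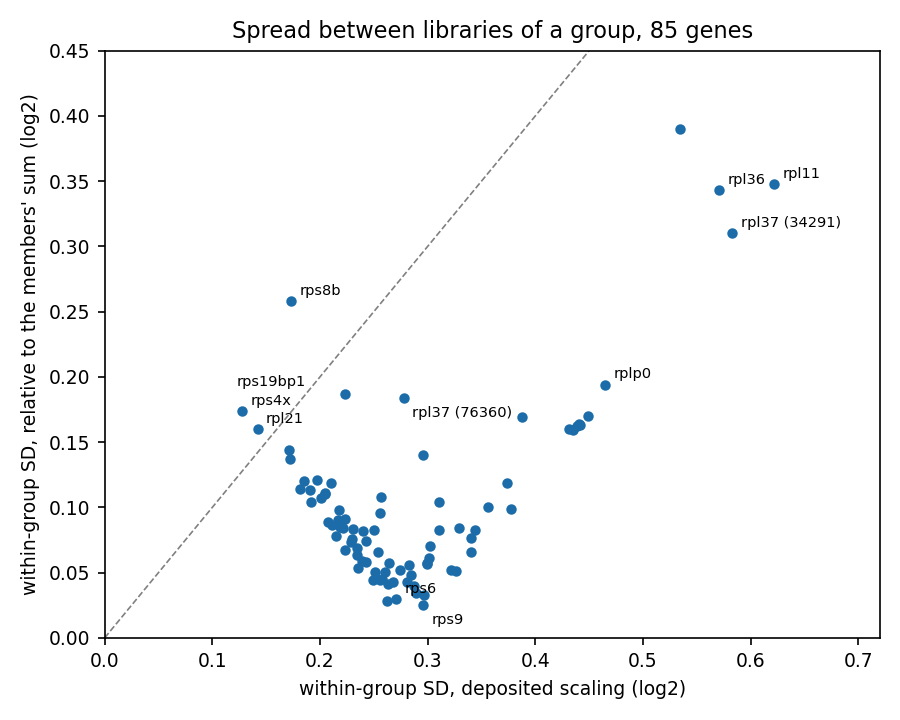
Within-group SD of each of the 85 genes on the log2 scale, in the deposited scaling (x axis) and relative to the summed level of all 85 genes (y axis); the dashed line marks equal values and selected genes are named, the rpl37 genes by the end of their identifier. The median is 0.26 on the x axis and 0.0842 on the y axis, while rps8b, rps4x and rpl21 lie above the line. Division by the sum of the same genes lowers the y values in part by construction.

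Some ribosomal proteins have more than 1 gene in zebrafish, and a ratio between such genes within a library is free of that library's scaling. It is not a ratio of transcripts, as the counts are not per length, and reads of near-identical copies may have been split between them. In 9 pairs the log2 ratio was compared among the 4 groups by an exact permutation test over all 369600 arrangements of the libraries, whose smallest possible p is 6.49e-05, with Benjamini-Hochberg adjustment over the 9 pairs. With these arrangements, which disregard the replicate number, the adjusted p was above 0.5 in 9 of 9 pairs. With arrangements kept within replicate numbers, a choice made after the data were seen, it was under 0.05 in 2 of the 9.

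The ratio of rplp2l to rplp2 was 1.1, 1.43 and 1.26 on the log2 scale in the control, 0.99, 1.26 and 1.14 at 3 nM, 1.05, 1.30 and 1.14 at 30 nM and 0.85, 0.91 and 0.98 at 100 nM. The 3 libraries at 100 nM lay below each of the other 9 libraries. The mean was 1.26 ± 0.163 in the control and 0.91 ± 0.0681 at 100 nM (SD, n = 3), and rplp2l made up 70.5% of the counts of the pair in the control and 65.3% at 100 nM. By the exact permutation test that disregards the replicate number p was 0.0608, adjusted 0.547, which does not pass. By exact permutation within replicate numbers p was 0.00347, adjusted 0.0234. Each of the 9 pairs was also tested with each of the 12 libraries left out in turn. Only the results that crossed 0.05 are given, without adjustment for the number of such tests. For this ratio the exact permutation p was 0.0295 without control replicate 1 and 0.0482 without 3 nM replicate 1.

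In mouse, the RPL22 protein lowers the messenger RNA of its paralog RPL22L1. The log2 ratio of rpl22l1 to rpl22 was −1.25, −1.64 and −1.42 in the control, −1.12, −1.31 and −1.21 at 3 nM, −1.19, −1.41 and −1.27 at 30 nM and −1.28, −1.64 and −1.34 at 100 nM. The groups overlapped and replicate 2 was lowest in each (exact permutation p = 0.284, adjusted 0.686). By exact permutation within replicate numbers p was 0.00521, adjusted 0.0234. rpl22l1 had 6173, 2887 and 4870 normalised counts in the control and 7720, 5378 and 7322 at 3 nM, a log2 fold change of 0.60 with a standard error of 0.31 (adjusted p = 0.486, limma).

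rps26l over rps26 had a mean log2 ratio of 0.65 ± 0.121 in the control and 0.47 ± 0.175 at 100 nM (exact permutation p = 0.29, adjusted 0.686, and unadjusted p = 0.00526 without 100 nM replicate 2). rps27.2 over rps27.1 had −0.41 ± 0.252 and −0.29 ± 0.152 (exact permutation p = 0.785, adjusted 0.877). rpl5b over rpl5a had −0.11 ± 0.221 and −0.06 ± 0.187 (exact permutation p = 0.877). rps27.2 alone had 18019, 11053 and 15425 normalised counts in the control and 25870, 15747 and 21876 at 100 nM, a log2 fold change of 0.51 (95% interval 0.04 to 0.99, adjusted p = 0.132, limma).

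rps8b had few counts, with 195, 188 and 176 normalised counts in the control, 226, 219 and 225 at 3 nM, 228, 224 and 265 at 30 nM and 227, 170 and 259 at 100 nM. Its libraries at 3 and 30 nM lay above the control range and those at 100 nM lay on both sides of it. rps8a had 41508, 29784 and 39896 in the control and 53127, 36752 and 48054 at 100 nM. Their log2 ratio gave p = 0.465 (exact permutation, adjusted 0.836), and rps8b at 30 nM had a log2 fold change of 0.35 with an adjusted p of 0.462 (limma).

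Both rpl37 genes share that symbol in the table. ENSDARG00000076360 made up 1.31% of the counts of the pair in the control and 1.01% at 100 nM (p = 0.806, exact permutation). In the gene name table used here this identifier carries the symbol COA1, so the name rule may have taken a gene of another kind.

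**Figure D5:**
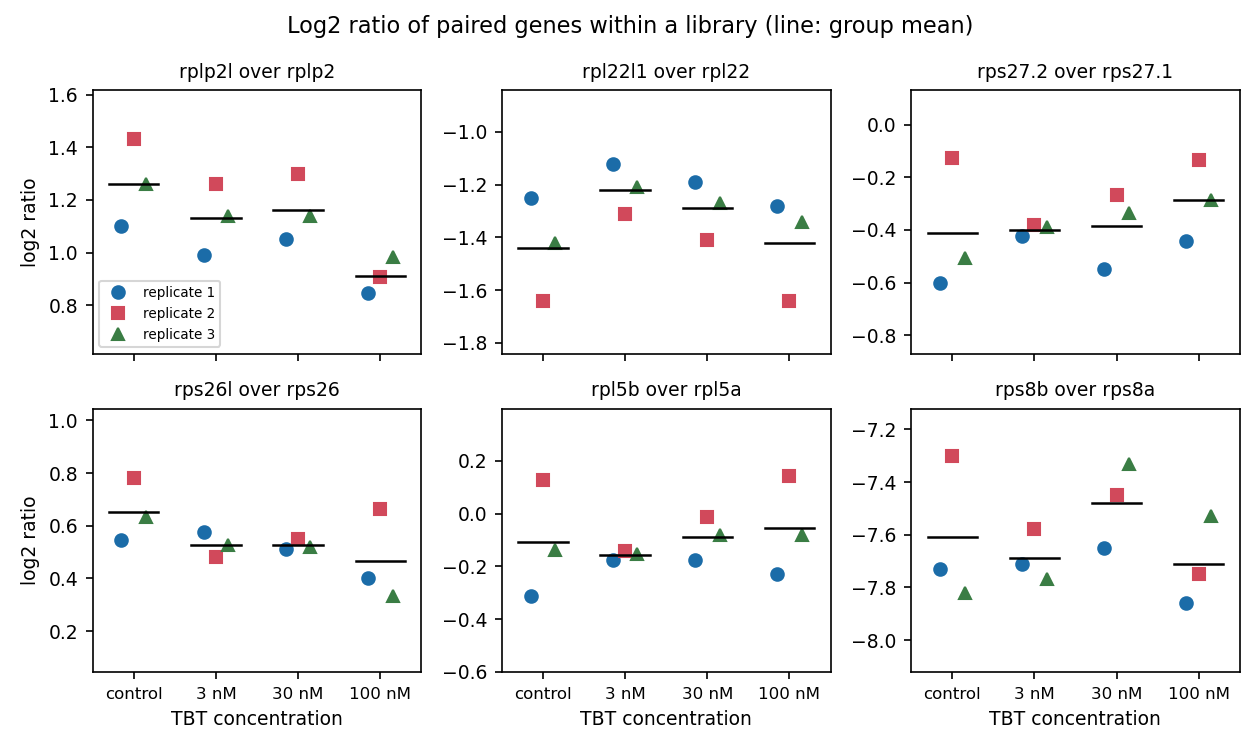
Log2 ratio of paired ribosomal protein genes within each library for 6 of the 9 pairs, by TBT concentration, with 1 marker per library and the group mean as a line; the y axes differ in their centre. For rplp2l over rplp2 the 100 nM libraries lie at 0.85 to 0.98 and the control libraries at 1.1 to 1.43, and in the other pairs shown these groups overlap.

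Among the genes that the name rule took, rpl7l1 encodes an RPL7-like protein of ribosome assembly and rps19bp1 a protein that binds RPS19, and neither is a standard part of the mature ribosome. rpl7l1 had 1455, 908 and 1066 normalised counts in the control, 1838, 1340 and 1475 at 3 nM, 1430, 1042 and 1154 at 30 nM and 1603, 994 and 1369 at 100 nM. rps19bp1 had 666, 510 and 585 in the control, 804, 668 and 601 at 3 nM and 786, 516 and 684 at 100 nM. Both overlapped between the groups, with log2 fold changes at 100 nM of 0.21 (adjusted p = 0.548, limma) and 0.16 (adjusted p = 0.561).

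rps20, which the rule left out because the table lists it as a processed transcript, had 35420, 18298 and 32674 normalised counts in the control and 42622, 25337 and 35838 at 100 nM, a log2 fold change of 0.29 (adjusted p = 0.517, limma), within the range of the members.

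Other genes of protein synthesis were read beside the members. Of 34 tested translation factor and other genes known for the same pyrimidine start, 6 were called higher and 2 lower at 100 nM, with a median log2 fold change of 0.31 (4 higher, 3 lower and a median of 0.12 with equal totals). Over all genes 9.63% were called higher and 7.9% lower at 100 nM, and 5.03% and 12.8% with equal totals. Among the 34 genes vim, the vimentin gene, rose by 0.51 (adjusted p = 0.00243, limma) from 3115, 3207 and 2986 to 4640, 4506 and 4118. hnrnpa1a, an RNA-binding protein gene, fell by 0.69 (adjusted p = 0.000399) from 2205, 2664 and 2423 to 1449, 1457 and 1595. Neither overlapped with its control, but both were named for the lowest p of the list at 100 nM, so this adds no support. All 3 libraries at 100 nM lay above the control range, as for vim, for 14.5% of all genes. The share of all genes below that range, as for hnrnpa1a, was not counted.

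Of 76 genes of the mitochondrial ribosome, 2 were called higher and 0 lower at 100 nM, mrps35 (0.51, adjusted p = 0.0126, limma) and mrpl4 (0.40, adjusted p = 0.0226). Their median was 0.07, and −0.12 with equal totals, where 1 was higher and 6 lower, both smaller shares than over all genes. At 3 nM the median was 0.22 with 76 of 76 above 0 and 0 called, against 51.4% of all genes above 0. With equal totals it was 0.13 with 68 above 0, against 38.1%.

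Of 57 ribosome biogenesis genes, 2 were called higher and 1 lower at 100 nM (1 and 3 with equal totals), with a median of 0.04, and of −0.14 with equal totals. These were smaller shares than the 9.63% higher and 7.9% lower over all genes (5.03% and 12.8% with equal totals). nob1, an endonuclease gene for the small-subunit RNA, rose by 0.73 (adjusted p = 0.00407, limma), and dkc1, the dyskerin gene, fell by 0.34 (adjusted p = 0.0146). At 3 nM the biogenesis genes had a median of 0.22 with 54 of 57 above 0, against 51.4% of all genes. With equal totals it was 0.13 with 47 above 0, against 38.1%. The median of the cytosolic ribosomal protein genes stayed above 0 in both scalings at 100 nM, as did that of the genes with the pyrimidine start. For the ribosomal protein genes it was 0.00934 with equal totals and without control replicate 2, with 50 members above 0 and 35 below. The median over all genes in that fit was −0.154. The medians of the other lists given here include control replicate 2. Of 7 markers of dividing cells, 7 were called lower at 100 nM in both scalings (limma). Over all genes 7.9% were called lower, and 12.8% with equal totals. The median of these 7 markers was −1.07 in the deposited scaling and −1.26 with equal totals. Their summed level was 15506 to 17073 in the control and 7162 to 9106 at 100 nM. Its part in the ribosomal protein values was not tested.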

How the data were processed

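Polyadenylated RNA of pooled zebrafish larvae was sequenced in 12 libraries, 3 per group, from a strand-marking kit, per the labels' protocols. Tools named in the submitters' processing notes, without their roles, are DESeq2 1.10.1, RSEM 1.2.28, STAR 2.5.1b and CASAVA; the build is GRCz10. What was deposited is treated as a score: the file headers call the values normalised counts, and the authors rounded them to whole numbers, so no count model was run. Raw depth is not given, and the values summed to between 26515823 and 35772586 per library. The table of the whole series repeated these values in 12 of 12 libraries. No genome was used, so no coordinates are given.

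Values were taken as log2(value + 1), over the 22404 genes with at least 10 in at least 3 libraries, and fitted with limma 3.58.1 (R 4.3.3) with 1 mean per group over 12 libraries, a variance trend and Benjamini-Hochberg adjustment, with a threshold of 0.05. Fold changes on this scale understate changes of low genes. The fit was run on simulated data with noise drawn independently for each value and planted changes larger than the members' median change. That run does not show how the fit performs with shifts shared by many genes of a library. Of the 85 member identifiers, 84 were in the gene name table and 74 had the same symbol there. The members, lists and named genes were chosen with earlier results of these data known. Named genes were members called with libraries outside the control range (0 found), listed paralog pairs, stalk, disease and reference genes, non-structural name matches, and the 3 largest and smallest spreads over controls. A further part of the rule, by protein identity, was not applied, and the 3 pairs sharing a symbol, the genes at the ends of a distribution and rps20 were named after their values were seen. Of the comparison lists, the 2 genes with the lowest p at 100 nM were eligible. Libraries were also scaled to equal totals, non-member totals, upper quartiles or quantiles, and left out in turn. Some member genes are counted in the totals but not reported singly here.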

Additional observations from a re-analysis of the deposited data

How the results depend on the processing

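In the fit with no term for the replicate number, the median standard error was 0.21 (log2). Single ribosomal protein genes with changes of the median size, 0.35, were not resolved in that fit. With such a term the median standard error at 100 nM was 0.108, and members were called, as given below. In the deposited scaling without that term, 0 members were called in the 4 comparisons and the joint test. The counts stayed 0 under the other scalings, pseudocount 8, other filters, fits of 2 groups and no variance trend. Leaving out 1 library gave 0 to 4 called at 100 nM and 0 to 0 elsewhere, joint test included. Of all genes tested, 2289 to 4621 were called at 100 nM in these fits. The medians then ranged from 0.152 to 0.512 at 100 nM, 0.0633 to 0.38 at 30 nM, 0.152 to 0.475 at 3 nM and −0.0394 to 0.261 between 100 and 30 nM. The share of counts minus control ranged from −0.0276 to 1.48 percentage points at 100 nM, 0.0501 to 1.38 at 30 nM and 0.589 to 1.92 at 3 nM.

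With quantile normalisation the median at 100 nM was 0.0708, and with equal totals the median deviation of 100 nM replicate 1 was 0.294 in place of 0.636. Chosen after seeing the data, equal sums of the members gave medians of 0.00815 at 100 nM and −0.00294 at 3 nM, by construction near 0. With equal totals and without control replicate 2 the median at 100 nM was 0.00934, against −0.154 over all genes. Leaving out all 4 libraries numbered 2, also chosen afterwards, called 2 members at 100 nM (rps27.2 and rps26) and 3982 of all genes tested. The medians were then 0.31 at 100 nM, with 85 members above 0, 0.146 at 30 nM and 0.253 at 3 nM. With equal totals this choice called 0 members at 100 nM, and the medians were 0.11, 0.0895 and 0.16. The causes were not tested.

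With the replicate number as a replicate block, 52 members were called at 100 nM, 0 at 30 nM, 14 at 3 nM, 0 between 100 and 30 nM and 29 jointly, all higher in the comparisons with control. The replicate block with equal totals called 12, 0, 10, 0 and 6, and with equal sums of the members 1 at 100 nM (rplp2, adjusted p = 0.0431, limma) and 0 in the other comparisons. For the ratios of paired genes, exact permutation within replicate numbers gave p = 0.00347 for rplp2l over rplp2 and 0.00521 for rpl22l1 over rpl22, both 0.0234 adjusted over the 9 pairs, and the other 7 did not pass. The numbers were not taken to pair the libraries: deviations of same-numbered libraries correlated above 0.1 in 13 of 18 pairs (−0.0202 to 0.578), and 11 of 12 libraries correlated best with their own number, a hint from the data and not the design. All pairs numbered 1 or 2 correlated at 0.293 or above, and those numbered 3 at −0.0202 to 0.15. Library names in the file headers are consecutive within each number, and no label says what they mark. Leaving out 1 library under the block, chosen after seeing the data, gave 15 (without control replicate 2) to 66 called at 100 nM, 0 to 32 at 3 nM, 0 to 1 at 30 nM and between 100 and 30 nM, and 2 to 49 jointly. Of all genes tested, these fits called 5131 to 7647 at 100 nM and 11 to 2325 at 3 nM. With all 12 libraries the block called 34.3% of all genes at 100 nM (16.9% higher) and 5.51% at 3 nM (1.91% higher). It called 3.47% at 30 nM, 20.3% between 100 and 30 nM and 33.8% jointly. The block with equal totals called 39.1% of all genes at 100 nM (9.34% higher), 7.84% at 3 nM (0.893% higher) and 36.3% jointly. With equal sums of the members it called 42.9% at 100 nM (4.97% higher).

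No named member was called in the deposited scaling without the block. Of their 2070 values under alternatives, 2009 kept direction and side of the threshold, 35 passed it and 26 turned sign. At 100 nM rps19bp1 was at −0.027 with equal totals, −0.015 with equal non-member totals and −0.027 with the block and equal totals. With quantile normalisation rplp2l was at −0.061, rps4x at −0.0035, rplp0 at −0.13, rplp1 at −0.044 and rpl21 at −0.0091 at 100 nM, rplp0 at −0.025, rplp1 at −0.00093 and rpl21 at −0.025 at 30 nM, and rpl21 at −0.0077 at 3 nM. Leaving out 1 library, with the lowest value without control replicate 2, gave at 100 nM −0.062 to 0.57 for rplp0, −0.22 to 0.66 for rpl11, −0.12 to 0.70 for rpl37 (ENSDARG00000034291) and −0.0017 to 0.80 for rpl36. At 30 nM it gave −0.18 to 0.40, −0.29 to 0.58, −0.17 to 0.65 and −0.089 to 0.72 for the same genes, −0.056 to 0.28 for rpl7l1 and −0.10 to 0.49 for rps27.1, and at 3 nM −0.044 to 0.83 for rpl11.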
